A study of Saccharomyces cerevisiae with 8 samples.

Results

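The 10 genes described here are phosphate-responsive genes of budding yeast (Saccharomyces cerevisiae): PHO84, PHO89, SPL2, PHO5, PHO11, PHO12, PHO8, VTC3, PHO81 and PHO4. They were taken as a named list and found by gene name or open reading frame name, 10 of 6225 genes on the array, each by 1 probe printed in 2 spots. All 10 passed the filter on dim probes and are among the 5394 genes tested. Total RNA of 8 cultures was measured on 8 single-colour arrays, in 4 groups of 2 biological replicates. The groups were an htz1 deletion strain (htz1D) harvested 20 minutes after NaCl was brought to 0.4 M, the same strain without added salt, Htz1 wild type (WT) after the same salt treatment, and WT without added salt. The labels give BY4147 as the strain for both genotypes, and all cultures grew in rich YPD medium, so no group was starved of phosphate by design. HTZ1 encodes the histone variant H2A.Z, and the title of the series concerns nucleosome reassembly near promoters by the INO80 remodelling complex.

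Yeast cells short of phosphate turn on a set of genes for its uptake, release and storage, the PHO regulon. The cyclin-dependent kinase Pho85 with its cyclin Pho80 keeps the activator Pho4 out of the nucleus while phosphate is plentiful. When phosphate is scarce, the inhibitor Pho81 silences the kinase, and Pho4 acts with Pho2 at promoters such as that of PHO5, whose nucleosomes are removed during activation. PHO5 is for that reason a textbook model of promoter chromatin.

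Values below are log2 signals relative to the array's own 75th percentile, so that 0 is the level of that percentile, and they are compared only within a gene. A level set this way does not show a change in total RNA per cell, and in a culture a lower level in every cell and loss from some of the cells cannot be told apart. HTZ1 was well above background on none of the 4 htz1D arrays and at least 65.7-fold lower in unstressed htz1D than in unstressed WT. The glycerol symporter gene STL1, a marker of osmotic stress, rose at least 446-fold with salt in htz1D and at least 307-fold in WT, so the arrays carry the genotypes and treatments of their labels. All 8 arrays lay on 1 slide, where position went with strain and treatment, so that an effect of position and the group cannot be told apart.

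Salt lowered most of the 10 genes in both strains. In htz1D 7 fell and 0 rose: PHO84, SPL2, PHO5, PHO11, PHO12, VTC3 and PHO81. PHO11 and PHO12 are counted separately here, though their probes may share signal. At an unadjusted p under 0.05 there were 8 lower and 0 higher in htz1D, where 31.4% of all tested genes were lower and 63.1% differed in either direction. In WT the same 7 and PHO4 fell, 8 in all, and PHO89 rose. Of all tested genes, 29.1% were called lower in htz1D and 25.7% in WT, and 29.3% and 31.2% were called higher (limma, Benjamini-Hochberg adjusted p under 0.05 over all genes). The median log2 difference of the 10 genes was −1.26 in htz1D and −1.44 in WT, beside medians of 0.01 and 0.07 over all tested genes.

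**Figure D1:**
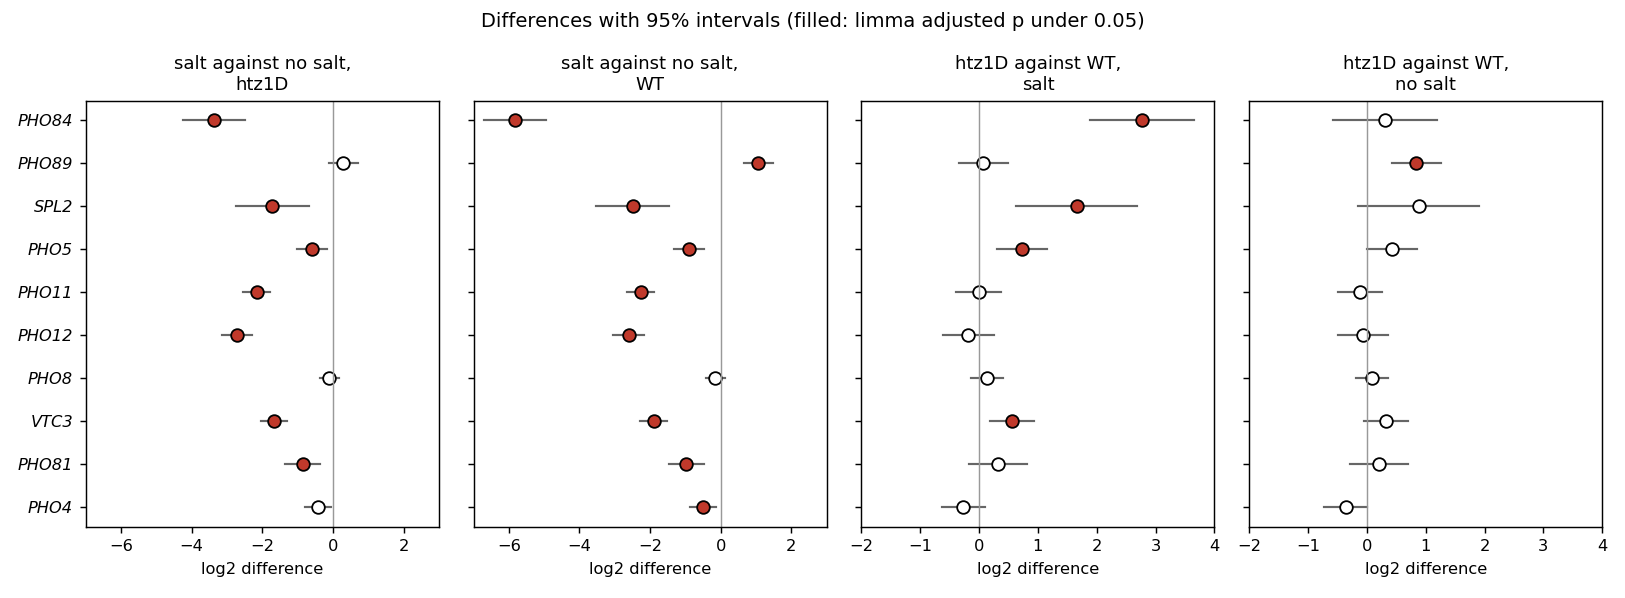
Log2 differences of the 10 genes (rows) in 4 comparisons (columns), with 95% intervals from limma over 2 arrays a group; filled points have an adjusted p under 0.05. PHO84 lies farthest left under salt, at −3.38 in htz1D and −5.84 in WT, and farthest right between strains with salt, at 2.77.

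PHO84 encodes the high-affinity proton-coupled phosphate transporter of the plasma membrane. It read −1.04 and 0.10 in salt-treated htz1D and 2.82 and 2.99 in unstressed htz1D, against −3.63 and −2.85 in salt-treated WT and 2.63 and 2.57 in unstressed WT. The 4 unstressed arrays were close together and high, the htz1D arrays with salt lay in the middle, the WT arrays with salt were low, and no groups overlapped. Salt left 9.62% of the unstressed signal in htz1D, a 10.4-fold fall (log2 −3.38, SE 0.37, limma adjusted p = 0.000205). In WT it left 1.75%, a 57.1-fold fall (−5.84, SE 0.37, limma adjusted p = 1.95e-05). Among the 4842 tested genes well above background on all 8 arrays, the WT value was the lowest salt response, and the htz1D value was place 49 from the lowest.

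The strains differed little in PHO84 without salt and much with it. Unstressed htz1D stood 0.31 above unstressed WT (SE 0.37, 95% interval −0.57 to 1.19, limma adjusted p = 0.627), a difference that did not pass. After salt the transcript was 6.81-fold higher in htz1D than in WT (2.77, SE 0.37, limma adjusted p = 0.00364), the second highest value among those 4842 genes. The test of the difference itself, the salt response of htz1D minus that of WT, gave 2.46 (SE 0.53, unadjusted p = 0.00211). That was the highest value of the 4842 genes, but it did not pass over all genes (limma adjusted p = 0.104). The replicates of PHO84 were also unusually far apart after salt. Their gap was 1.13 in htz1D, a size met or exceeded by 0.408% of tested genes, and 0.79 in WT, met or exceeded by 1.95%. The 2 spots on an array differed by at most 0.21, so the gap lay between cultures or their arrays and not between spots. Leaving out each array in turn kept the strain difference with salt between 2.20 and 3.33, with the call intact.

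PHO89 encodes the other high-affinity phosphate transporter, driven by sodium and known for activity at alkaline pH. It read −3.38 and −3.17 in salt-treated htz1D and −3.79 and −3.36 in unstressed htz1D, against −3.30 and −3.40 in salt-treated WT and −4.56 and −4.27 in unstressed WT. Unstressed WT was the low group and the other 3 were near one another; 1 of its 2 arrays was well above background. PHO89 was the only one of the 10 genes to rise with salt, by 2.09-fold in WT (1.07, SE 0.18, limma adjusted p = 0.00174). In htz1D the difference was 0.29 (SE 0.18, adjusted p = 0.194) and the groups overlapped. It was also the only one of the 10 called higher in unstressed htz1D than in unstressed WT, by 1.79-fold (0.84, SE 0.18, limma adjusted p = 0.023). With salt the strains stood 0.07 apart (95% interval −0.35 to 0.49). The difference of the salt responses was −0.77 (SE 0.25, unadjusted p = 0.017, adjusted p = 0.259).

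The calls on PHO89 were made near the detection limit and some were lost. With normexp background correction of the raw signals, the salt rise in WT was 0.73 and the strain difference without salt 1.02, and neither passed. That strain difference was 0.27 in the authors' value table, 0.70 and 0.99 without WT unstressed replicate 1 or 2, and 0.63 without htz1D unstressed replicate 2, none of which passed, while without that last array the salt rise in htz1D reached 0.51 and passed.

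SPL2 encodes a small protein that lowers low-affinity phosphate uptake when phosphate is scarce. It read −1.31 and −1.68 in salt-treated htz1D and 0.92 and −0.50 in unstressed htz1D, against −2.93 and −3.38 in salt-treated WT and −0.37 and −0.96 in unstressed WT. Salt-treated arrays were below unstressed ones in each strain, and the unstressed strains overlapped. The 2 unstressed htz1D cultures differed by 1.42, a gap met or exceeded by 0.593% of tested genes. Salt lowered SPL2 3.27-fold in htz1D (−1.71, SE 0.44, limma adjusted p = 0.0121) and 5.62-fold in WT (−2.49, SE 0.44, limma adjusted p = 0.00229). After salt it was 3.16-fold higher in htz1D than in WT (1.66, SE 0.44, limma adjusted p = 0.0353). Without salt the strain difference was 0.88 (SE 0.44, adjusted p = 0.22), and the difference of the salt responses was 0.78 (SE 0.62, adjusted p = 0.741).

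The difference of SPL2 between salt-treated strains was not stable as a call. It was 1.88 and 1.43 without WT salt replicate 1 or 2 and 1.47 and 1.84 without htz1D salt replicate 1 or 2, and it passed in none of them. It did not pass either under normexp (1.34), in the authors' value table (1.16) or with no filter on dim probes (1.66). The salt fall in htz1D did not pass without htz1D salt replicate 2 (−1.53), and was −1.001 or −2.42 without htz1D unstressed replicate 1 or 2. Without these same arrays the strain difference without salt was 0.17, which did not pass, or 1.59, which did, and the difference of the salt responses was 1.49 or 0.07, neither of which passed.

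**Figure D2:**
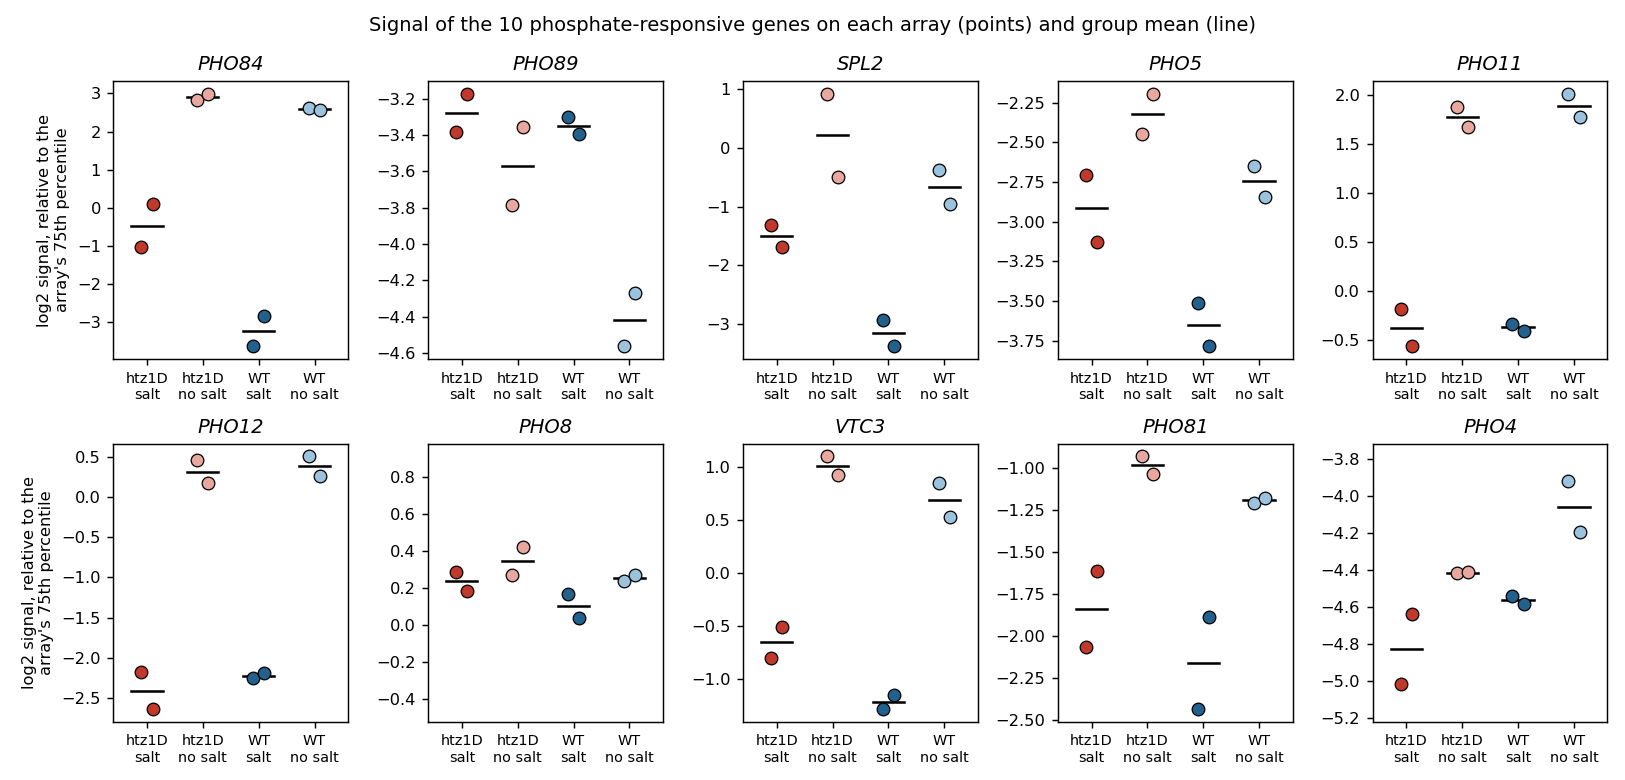
Log2 signal relative to the array's 75th percentile (vertical axis, scaled for each gene) of the 10 genes in the 4 groups; each point is 1 array and each line the mean of 2. PHO84, SPL2, PHO5, VTC3 and PHO8 are higher in salt-treated htz1D than in salt-treated WT on every array, as are 25.8% of tested genes. PHO4 is lower on every array, as are 40.5% of tested genes, while the salt-treated strains of PHO11 and PHO12 overlap.

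PHO5 encodes the main repressible acid phosphatase, secreted to the cell wall. It read −2.71 and −3.13 in salt-treated htz1D and −2.45 and −2.19 in unstressed htz1D, against −3.51 and −3.79 in salt-treated WT and −2.65 and −2.84 in unstressed WT. Each WT group was below its htz1D counterpart, and salt-treated htz1D overlapped with unstressed WT. Salt lowered it 1.51-fold in htz1D (−0.60, SE 0.18, limma adjusted p = 0.025) and 1.87-fold in WT (−0.90, SE 0.18, limma adjusted p = 0.0044). With salt it was 1.66-fold higher in htz1D than in WT (0.73, SE 0.18, limma adjusted p = 0.029). Without salt the difference was 0.43 (95% interval −0.004 to 0.85, adjusted p = 0.164). Under normexp 3 of these calls were lost: the salt response was −0.73 in htz1D and −0.67 in WT, and the strain difference with salt 0.49. That strain difference did not pass without WT salt replicate 2 (0.60) or htz1D salt replicate 1 (0.52), nor the salt fall in htz1D without htz1D unstressed replicate 2 (−0.47) or htz1D salt replicate 2 (−0.39).

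PHO11 and PHO12 encode a pair of nearly identical acid phosphatases, and their probes may share signal with each other and with related genes such as PHO5 and PHO3. PHO11 read −0.19 and −0.57 in salt-treated htz1D and 1.88 and 1.67 in unstressed htz1D, against −0.34 and −0.41 in salt-treated WT and 2.01 and 1.77 in unstressed WT. PHO12 read −2.18 and −2.64 in salt-treated htz1D and 0.46 and 0.17 in unstressed htz1D, against −2.26 and −2.19 in salt-treated WT and 0.51 and 0.26 in unstressed WT. For both genes the salt-treated arrays were far below the unstressed ones, and the strains overlapped in either condition. Over the 8 arrays the 2 probes correlated at r = 0.998, given as a description of arrays that they share.

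Salt lowered PHO11 4.45-fold in htz1D (−2.16, SE 0.16) and 4.81-fold in WT (−2.27, SE 0.16). PHO12 fell 6.61-fold in htz1D (−2.72, SE 0.18) and 6.09-fold in WT (−2.61, SE 0.18). The limma adjusted p lay between 1.74e-05 and 2.99e-05 in these 4 tests. The strains differed by less than the test could call. With salt the difference between htz1D and WT was −0.01 for PHO11 (95% interval −0.39 to 0.38) and −0.19 for PHO12 (−0.62 to 0.25). Without salt it was −0.12 for PHO11 (−0.50 to 0.26) and −0.07 for PHO12 (−0.50 to 0.36). In the gene order of the R64 assembly PHO11 is the last protein-coding gene on its arm of chromosome I and PHO12 the fourth from its end of chromosome VIII.

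PHO8 encodes the vacuolar alkaline phosphatase. It read 0.29 and 0.19 in salt-treated htz1D and 0.27 and 0.42 in unstressed htz1D, against 0.17 and 0.04 in salt-treated WT and 0.24 and 0.27 in unstressed WT. The 8 arrays spanned 0.38 in all, the narrowest span of the 8 genes among the 10 that were well above background on every array. No comparison passed: salt gave −0.11 in htz1D (95% interval −0.38 to 0.16) and −0.15 in WT (−0.42 to 0.11), and htz1D stood 0.14 above WT with salt (−0.13 to 0.40) and 0.09 without (−0.18 to 0.36).

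VTC3 encodes a subunit of the vacuolar transporter chaperone complex, which makes polyphosphate, the phosphate store of the vacuole. It read −0.80 and −0.50 in salt-treated htz1D and 1.10 and 0.93 in unstressed htz1D, against −1.28 and −1.15 in salt-treated WT and 0.85 and 0.53 in unstressed WT. No groups overlapped, and the htz1D arrays stood above the WT arrays in both conditions. Salt lowered it 3.17-fold in htz1D (−1.67, SE 0.16, limma adjusted p = 9.82e-05) and 3.74-fold in WT (−1.90, SE 0.16, limma adjusted p = 6.21e-05). With salt it was 1.48-fold higher in htz1D than in WT (0.56, SE 0.16, limma adjusted p = 0.0443), and without salt the difference was 0.33 (SE 0.16, adjusted p = 0.214). The first of these passed narrowly. It did not pass under normexp (0.55) or with no filter (0.56), without either salt-treated array of htz1D (0.71 and 0.41) or WT (0.50 and 0.63), or without either unstressed WT array (0.56 each).

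PHO81 encodes the inhibitor of the Pho80-Pho85 kinase and is itself a Pho4 target. It read −2.06 and −1.62 in salt-treated htz1D and −0.93 and −1.04 in unstressed htz1D, against −2.44 and −1.89 in salt-treated WT and −1.21 and −1.18 in unstressed WT. Salt-treated arrays were below unstressed ones in each strain, and the salt-treated strains overlapped. Salt lowered it 1.81-fold in htz1D (−0.86, SE 0.21, limma adjusted p = 0.0101) and 1.96-fold in WT (−0.97, SE 0.21, limma adjusted p = 0.00614). Without htz1D salt replicate 1 the htz1D value was −0.63 and did not pass. The strains differed by 0.32 with salt (95% interval −0.17 to 0.82) and 0.21 without (−0.29 to 0.70).

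PHO4 encodes the activator itself, whose activity is set largely by its phosphorylation and location. It was dim on every array. It read −5.02 and −4.64 in salt-treated htz1D and −4.42 and −4.41 in unstressed htz1D, against −4.54 and −4.58 in salt-treated WT and −3.92 and −4.19 in unstressed WT. Its signal was well above background on 6 of the 8 arrays, with 1 array missing in unstressed htz1D and 1 in salt-treated WT. Salt lowered it 1.42-fold in WT (−0.50, SE 0.16, limma adjusted p = 0.0272), and the htz1D value of −0.41 (SE 0.16) missed the threshold (adjusted p = 0.0535). The WT fall did not pass under normexp (−0.25), in the authors' value table (−0.23), or without WT unstressed replicate 1 (−0.37), WT salt replicate 1 (−0.53) or WT salt replicate 2 (−0.48). The htz1D fall passed without htz1D salt replicate 2 (−0.60).

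Those of the 10 genes that passed between the strains were all higher in htz1D. With salt, 4 of 10 were higher in htz1D than in WT, PHO84, SPL2, PHO5 and VTC3, and 0 were lower. At an unadjusted p under 0.05 the counts were the same, where 11.6% of all tested genes were higher and 36.2% differed in either direction. Of all tested genes 5.77% were called higher in that comparison and 16.2% lower, or 311 and 872 genes, a split that was 601 and 503 with median scaling, 433 and 564 with quantile scaling and 549 and 627 in the authors' values. Every array of salt-treated htz1D was above every array of salt-treated WT for 5 of the 10 genes, PHO8 being the fifth, as for 25.8% of tested genes. The opposite held for 1, PHO4, as for 40.5% of tested genes. The count of 4 was 1 under normexp and 1 to 4 with single arrays left out, with PHO84 called in all of these. The count over all tested genes moved in these settings too, from 311 called higher to 77 under normexp. Without salt 1 of 10 was higher, PHO89, and 0 lower, where 7.36% of tested genes were called higher and 6.32% lower. Between the strains the median log2 difference of the 10 genes was 0.26 without salt and 0.23 with it. The medians over all tested genes were −0.04 and −0.07. The strain comparisons use the same arrays as the salt comparisons and are not independent of them. The salt response differed between strains by the adjusted test in 0 of 10 genes (limma; 2 at an unadjusted p under 0.05, PHO84 and PHO89), beside 1.00% of tested genes called and 12.1% at the unadjusted threshold.

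The order of the 4 group means took 3 forms. In 6 genes, PHO84, SPL2, PHO5, PHO8, VTC3 and PHO81, unstressed htz1D was highest, then unstressed WT, then salt-treated htz1D, with salt-treated WT lowest. Neighbours in that order were separate throughout for PHO84 and VTC3. For the other 4 genes of this form the arrays of at least 1 pair of neighbouring groups overlapped. None of the 6 was called different between the unstressed strains, and PHO8 passed in no comparison. How many of all tested genes have this order was not counted. In PHO11, PHO12 and PHO4 the order was unstressed WT, unstressed htz1D, salt-treated WT and salt-treated htz1D, and for PHO11 and PHO12 the strains overlapped within each condition. PHO89 alone was highest in the salt-treated groups, which overlapped.

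**Figure D3:**
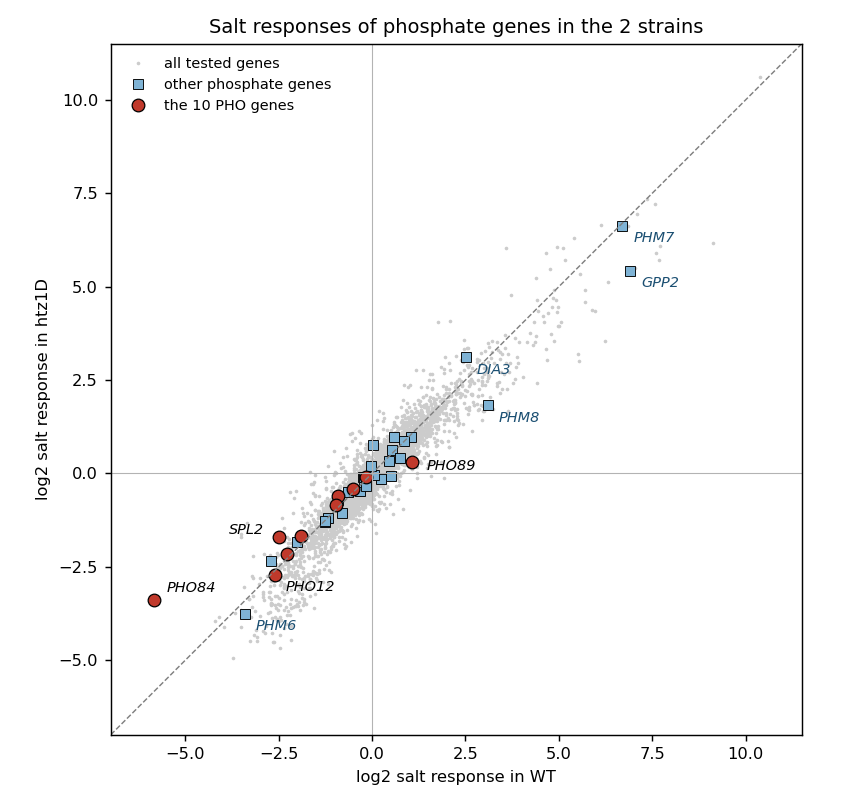
Log2 salt response in htz1D (vertical) against that in WT (horizontal) for all 5394 tested genes (grey), the 10 genes (red) and 29 other phosphate genes (blue); the dashed line marks equal responses. PHO84, at −3.38 and −5.84, lies well above the line, PHO12 lies near it, and GPP2 lies below it at 5.43 and 6.91.

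A wider list of 31 phosphate genes, of which 29 were tested, gave the setting. In htz1D 11 rose with salt and 11 fell, and in WT 10 rose and 10 fell, with medians of −0.09 and −0.04. Of all tested genes 29.3% were called higher and 29.1% lower in htz1D, and 31.2% and 25.7% in WT. The medians over all tested genes were 0.01 in htz1D and 0.07 in WT. GIT1, the glycerophosphoinositol transporter gene, and CTF19, a kinetochore gene that neighbours VTC3, were well above background on no array and were not tested. VTC1, VTC2 and VTC4 encode other vacuolar transporter chaperone subunits. Their transcripts fell with salt, by 1.29, 0.50 and 1.19 in htz1D and by 1.26, 0.65 and 1.19 in WT. VTC2 in htz1D did not pass without htz1D salt replicate 2 (−0.48) or under normexp (−0.41).

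The other genes of the Pho4 regulon went both ways. PHM6, of unknown function, was not well above background after salt and fell at least 3.72-fold in htz1D and at least 4.57-fold in WT. PHO86, needed to export Pho84 from the endoplasmic reticulum, fell by 0.47 in htz1D and by 0.33 in WT. The 4 that rose in both strains were PHM7, PHM8, GPP2 and PPN1. PHM7 rose 98.9-fold in htz1D, where 1 of 2 unstressed arrays was well above background, and at least 66.6-fold in WT. PHM8, a lysophosphatidic acid phosphatase gene, rose 3.54-fold in htz1D and at least 6.61-fold in WT. GPP2, whose product makes glycerol from glycerol phosphate, rose 43.0-fold in htz1D and 120-fold in WT. GPP2 is known for its part in the osmotic response, which the name of the list does not say. PPN1, an endopolyphosphatase gene, rose by 0.61 in htz1D and by 0.54 in WT. PPN1 in WT was called in 10 of 16 alternatives and PHO86 in WT in 7, while in htz1D each was called in 14. GDE1, a glycerophosphocholine phosphodiesterase gene, was at −0.15 and 0.24 and did not pass in either.

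Of 8 regulator genes, 5 rose with salt in each strain and 0 fell (limma adjusted p under 0.05). Of all tested genes 29.3% were called higher in htz1D and 31.2% in WT, and 29.1% and 25.7% lower. At an unadjusted p under 0.05 also 0 of the 8 fell, and DDP1 rose in WT (0.50, limma unadjusted p = 0.0386). At that threshold 63.1% of all tested genes differed in either direction in htz1D and 61.9% in WT. The cyclin gene PHO80 was higher by 0.34 in htz1D and 0.47 in WT, the kinase gene PHO85 by 0.40 and 0.74, and PHO2, which encodes the partner of Pho4, by 0.98 and 0.57. The inositol polyphosphate kinase genes ARG82 (0.98 and 1.05) and IPK1 (0.86 and 0.85) rose too. KCS1, VIP1 and DDP1, which make or remove inositol pyrophosphates, did not pass the adjusted threshold in either strain. PHO80 in htz1D did not pass when any 1 of 7 arrays was left out (values from 0.27 to 0.37), nor PHO85 there without htz1D unstressed replicate 2 (0.28), htz1D salt replicate 1 (0.39) or htz1D salt replicate 2 (0.41). Under normexp 0 of these 5 genes passed in htz1D, where IPK1 turned to −0.23, and PHO85 and ARG82 passed in WT. The WT call on PHO80 was also lost in the authors' value table (0.21) and without WT unstressed replicate 2 (0.40), and that on IPK1 in the authors' value table (0.24).

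Of the low-affinity phosphate transporter genes, PHO90 fell by 1.06 in htz1D and by 0.79 in WT, while PHO87 (−0.09 and −0.25) did not pass, nor did PHO91 of the vacuole (0.20 and −0.04). PHO90 was the only one of the 29 lower in htz1D than in WT both with salt (−0.77, SE 0.12, limma adjusted p = 0.00654) and without (−0.50, SE 0.12, limma adjusted p = 0.0383). The difference without salt was called in 6 of 16 alternatives, and that with salt did not pass without htz1D salt replicate 1 (−0.69). PPN2, another endopolyphosphatase gene, fell by 1.84 and 2.02, SYG1 by 0.71 and 0.91, and PHO88, an endoplasmic reticulum protein gene, by 1.26 in each strain. VTC5, an accessory subunit of the Vtc complex, passed in htz1D (0.77) and was at 0.02 in WT, a difference of the salt responses of 0.74 that did not pass (adjusted p = 0.382). In htz1D VTC5 did not pass without unstressed replicate 1 (0.59), without salt replicate 2 (0.52) or under normexp (0.46).

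PHO3, the constitutive acid phosphatase gene beside PHO5, fell 5.04-fold in htz1D and 6.58-fold in WT with salt. Without salt it was 1.92-fold lower in htz1D than in WT (−0.94, SE 0.17, limma adjusted p = 0.0152), where PHO5 stood at 0.43; the PHO3 value without WT unstressed replicate 1 was −0.77 and did not pass. PHO13, an alkaline phosphatase gene, was lower with salt by 0.33 in htz1D, a call kept in 8 of 16 alternatives, and by 0.15 in WT, where it did not pass. The acid phosphatase homologue DIA3 rose 8.60-fold in htz1D and 5.72-fold in WT, and 1 of its 2 unstressed WT arrays was well above background. In unstressed htz1D, PHM8 was at least 4.20-fold and GPP2 2.61-fold higher than in unstressed WT, and PHO2 was 1.38-fold lower (limma adjusted p = 0.0497, called in 4 of 16 alternatives). With salt PHM8 was 2.25-fold higher in htz1D than in WT (limma adjusted p = 0.038), which did not pass when any of the 4 salt-treated arrays was left out (0.97 to 1.37). With salt GPP2 stood at −0.10 between the strains, and its salt response was smaller in htz1D by 1.49 on the log2 scale (SE 0.20, limma adjusted p = 0.0231), the only 1 of the 29 with a called difference of the responses. That call was kept in 7 of 16 alternatives.

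**Figure D4:**
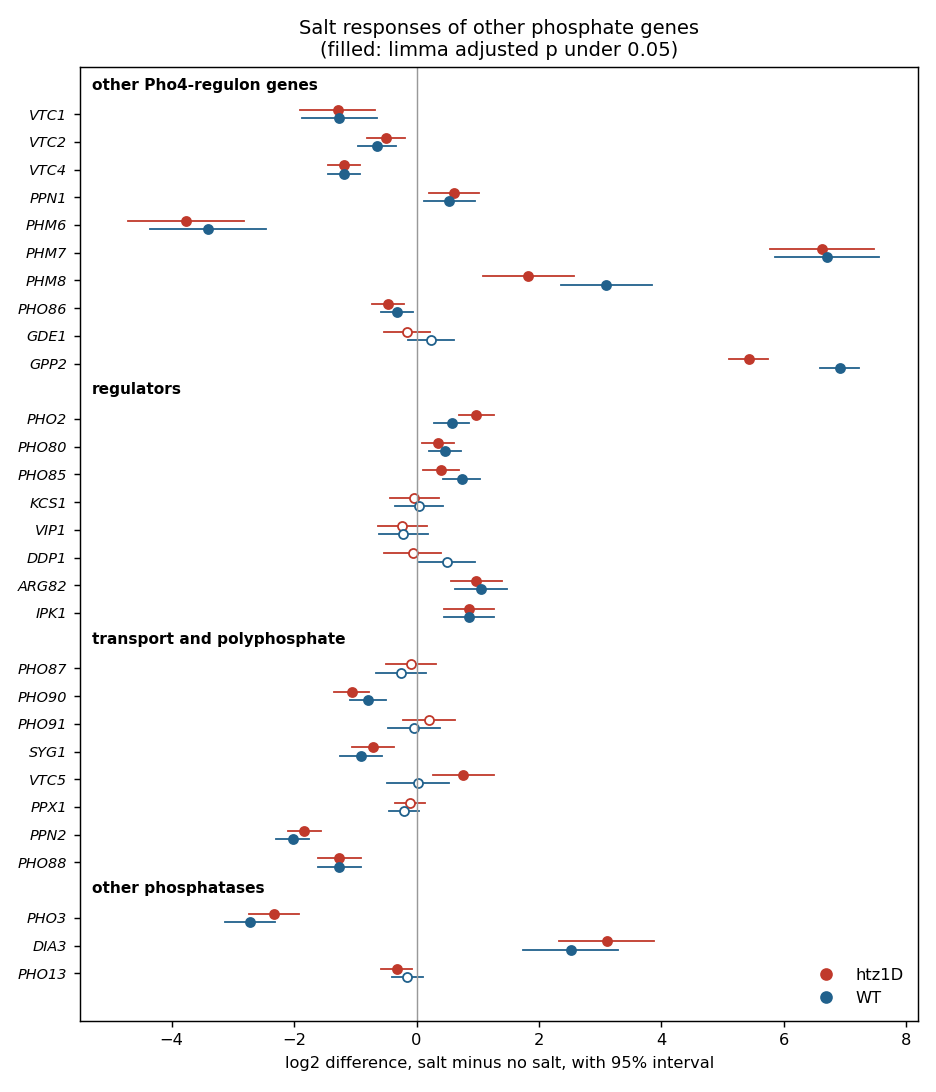
Salt responses (log2, salt minus no salt, with 95% intervals) of 29 other phosphate genes in htz1D (red) and WT (blue), grouped by role; filled points have a limma adjusted p under 0.05. The VTC1, VTC2 and VTC4 points lie left of 0 and the called regulators right of it. For PHM6 in both strains, and for PHM7 and PHM8 in WT, 1 group was not well above background. Those points are fitted values, and their bounds are given in the text. PHM7 in htz1D had 1 of 2 unstressed arrays well above background.

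The genes whose profile lay nearest to each member were found among 4834 others well above background on all 8 arrays, by the root mean square (RMS) difference of log2 values centred on each gene's mean. PHO84 had no close match on this measure, which also counts the size of a change. Its nearest, ZEO1, was 1.18 away over the 8 arrays, beside a span of 6.62 for PHO84 itself. RRP12 (1.21) and AAH1 (1.29) followed, and the median over all candidates was 2.56. In shape ZEO1 was like PHO84 (Pearson r = 0.969), with smaller salt responses of −2.21 in htz1D and −3.19 in WT. ZEO1, a plasma membrane protein gene, was also nearest to SPL2 (0.46), with VTC1 (0.61) second. The nearest to VTC3 were NOP10 (0.20), PPN2 (0.20) and DFR1 (0.21). PHO11 lay nearest to RRB1 (0.16), YCR087C-A (0.17) and NOP56 (0.18), and PHO12 to URA7 (0.16), YBL028C (0.17) and LIA1 (0.17). RRB1 and NOP56 act in ribosome assembly, and URA7 in CTP synthesis. PHO5 had IES6, GND1 and REE1 within 0.20 to 0.21, PHO81 had URA1, AMN1 and YBR071W within 0.12 to 0.15, and PHO8, which hardly moved, had OST1, BUD6 and QDR3 within 0.04 to 0.06.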

How the data were processed

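Per the file headers, the deposited spot intensities were read by Agilent Feature Extraction 10.7.3.1 on an array designed on sacCer2, and each processed intensity has local background and a spatial trend removed, without scaling between arrays. The authors' value table holds log2 values of 6187 probes, and the sources used here do not give their normalization. The submitters' processing notes name limma.

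Here log2 processed signals were set relative to each array's 75th percentile and averaged over the spots of a probe, without 536 control and 86 outlier spots; no spot was saturated. The percentile lay between 2740 and 4290. Genes were tested if well above background on both arrays of a group, the brightest probe standing for a gene. Two-sided tests used limma 3.58.1 in R 4.3.3 on 4 group means over 8 arrays (4 residual degrees of freedom), with Benjamini-Hochberg adjustment over all 5394 genes. Where a whole group was not well above background, folds are bounds, taken on each dim array from the lowest signal of any probe above background, or from the probe itself if brighter. The scanner files have no mean signal, so normexp used median signals. The fit was tested on simulated data. Gene names came from the R64 gene table (5748 of 6256 probes matched), which gave names and gene order only. Precision is limited by the 2 arrays a group. All 10 genes are reported, the other phosphate genes where they passed or a count needs them, and the 3 nearest genes in profile for each of the 10 that was bright on all arrays. The genes and lists were chosen with earlier results of these data known.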

Additional observations from a re-analysis of the deposited data

Results flagged for a closer look

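GPP2, a glycerol phosphatase gene on the list of other phosphate genes, stood out because its salt response differed between the strains by a test of the difference itself. The salt response in htz1D minus that in WT was −1.49 on the log2 scale (SE 0.20, limma adjusted p = 0.0231), over 2 arrays in each of the 4 groups. GPP2 was 43.0-fold higher with salt than without in htz1D and 120-fold higher in WT. Between the strains it stood at −0.10 with salt (limma adjusted p = 0.645). Without salt it was 2.61-fold higher in htz1D than in WT (limma adjusted p = 0.0015). The difference of the salt responses passed in 7 of 16 alternative settings, and over all 16 it lay between −1.63 and −1.16.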

How the results depend on the processing

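The salt falls of PHO84, PHO11, PHO12 and VTC3 in both strains, of SPL2 and PHO81 in WT, and the higher PHO84 in salt-treated htz1D passed in all 16 alternatives. Precision is limited by 2 arrays a group, and PHO89 and PHO4 were not well above background on every array. The replicate numbers carry no stated pairing; replicate 1 minus replicate 2 correlated between groups at 0.18 to 0.42. With the replicate block the strain comparison called 700 genes higher and 695 lower without salt (2 and 5 of the PHO and other phosphate genes higher) and 588 higher with salt (5 other phosphate genes higher, 2 lower), and the interaction 18 higher and 123 lower, among them PHO84 (1 of the 10, adjusted p = 0.0388); SPL2 without salt passed too (adjusted p = 0.0487). Under normexp the salt comparison called 1017 genes higher in WT (0 of the 10, 6 other phosphate genes) and 776 in htz1D (5 others), the strain comparison 162 higher and 23 lower without salt (0 of the 10 higher, 1 other lower) and 77 higher and 247 lower with salt (1 of the 10, 0 others higher), and the interaction 0 and 1 (0 others). There PHO89 turned to −0.34 (salt, htz1D) and −0.056 (strains, salt), PHO4 to 0.64 (strains, no salt), and the interaction to −0.063 for PHO5, −0.11 for PHO81 and −0.77 for PHO4; none of these passed. Median scaling gave 601 higher and 503 lower between strains with salt (5 others higher), 1 other lower without salt and 24 lower in the interaction; it moved the median of all genes between salt-treated strains from −0.07 to 0.09, and PHO11 to 0.15. Quantile scaling gave 564 lower and 4 others higher with salt and 29 lower in the interaction, with PHO11 at 0.044, PHO12 at 0.046 and PHO4 at 0.005 between salt-treated strains and PHO12 at 0.14 in the interaction. The authors' values gave 549 higher and 6 others higher with salt, 0 of the 10 higher without salt, and 13 lower in the interaction, with PHO12 at 0.10. With no filter, 2 of the 10 and 0 others were higher between salt-treated strains, 1 other was lower without salt, and the interaction had 2 higher and 12 lower (0 others). With genes bright on all arrays alone, which leaves PHO89 and PHO4 untested, 0 of the 10 were higher in WT with salt and in unstressed htz1D, 7 others rose in htz1D, 1 other was higher without salt, 2 others lower with salt, and 2 genes higher in the interaction. Leaving out an array leaves 1 in its group, assumed to vary like the other groups. Then genes called between strains were 168 to 374 higher and 103 to 289 lower without salt (0 to 1 of the 10 higher, 0 to 2 others lower), and 83 to 406 higher and 347 to 1029 lower with salt (1 to 4 of the 10 higher, 0 to 2 others in each direction), and in the interaction 0 to 34 higher and 4 to 68 lower (0 to 1 others). For salt in htz1D it was 0 to 1 of the 10 and 7 to 10 others higher. Uncalled values that crossed 0 ran from −0.24 to 0.004 (PHO11) and −0.21 to 0.076 (PHO12) between unstressed strains, from −0.035 to 0.18 (PHO89), −0.20 to 0.18 (PHO11) and −0.41 to 0.043 (PHO12) between salt-treated strains, and in the interaction from −0.077 to 0.30 (PHO11), −0.34 to 0.11 (PHO12), −0.03 to 0.12 (PHO8), −0.16 to 0.39 (PHO81) and −0.10 to 0.28 (PHO4). The cause of these changes was not tested. The planned promoter motif search was not run, since no promoter sequences were used here.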
